A study of Mus musculus with 2 samples.

Results

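The joining (J) genes of the mouse immunoglobulin heavy chain, IGHJ1, IGHJ2, IGHJ3 and IGHJ4, were followed through B cell receptors of Peyer's patches, lymphoid tissue in the wall of the small intestine where B cells meet gut antigens. A receptor was counted when its barcode held exactly 1 productive heavy chain CDR3 and the contig carried 1 of the 4 J genes, which was so for 6241 of 6993 barcodes (3294 of 3748 in the Cre+ library and 2947 of 3245 in the Cre- library). Both libraries came from H2-Ab1 fl/fl mice, in which the gene of an MHC class II beta chain is flanked by loxP sites. The Cre+ mice also carried Villin:Cre, whose promoter drives the recombinase in the intestinal epithelium, and the Cre- mice did not. Each library pooled CD45+ cells of 4 adult females. The genotypes follow the sample labels, since the design text of the series gives the same Cre-negative genotype to both groups. H2-Ab1 and the marker genes of B cells were not measured, so neither the genotype nor the cell type could be checked here. With 1 library per genotype no test was possible, and the intervals are exact 95% Clopper-Pearson intervals that cover counting error only. Cells of a lineage are not independent, nor are its distinct rearrangements. A share carried by a large lineage, or by several rearrangements of 1 lineage, is less certain than its interval shows.

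A heavy chain variable region is assembled during B cell development by joining a D gene to a J gene and then a V gene to the DJ product. The ends are trimmed and bases are added at each joint before ligation, so the stretch that spans them, the third complementarity-determining region (CDR3), differs between cells. The J gene supplies the last part of the CDR3 and the framework that follows it, and its identity does not change when the cell later switches from IgM and IgD to IgG or IgA.

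In the RefSeq gene table of GRCm38.p6 the 4 genes lie within 1320 bases of chromosome 12, between the D genes and Ighm. IGHJ1, the nearest to the D genes, spans 113429781 to 113429833, IGHJ2 spans 113429468 to 113429515, IGHJ3 spans 113429085 to 113429132 and IGHJ4 spans 113428514 to 113428567. After the 31 bases that follow the CDR3 are set aside, 22, 17, 17 and 23 bases of IGHJ1, IGHJ2, IGHJ3 and IGHJ4 can enter the CDR3. These stretches are printed because the trimming, the CDR3 length and the mismatches below are all read against them. They were read from the deposited CDR3s of unswitched cells, 5′ to 3′ and ending with the tryptophan codon, and capitals mark the bases kept in 90% or more of the distinct unswitched rearrangements of both libraries.

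IGHJ1: ctactggTACTTCGATGTCTGG
IGHJ2: actactttGACTACTGG
IGHJ3: cctggtttGCTTACTGG
IGHJ4: attactatGCTATGGACTACTGG

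IGHJ1 and IGHJ4 thus kept 15 bases in nearly all rearrangements, and IGHJ2 and IGHJ3 kept 9. IGHJ2 and IGHJ4 share their last 9 bases, while IGHJ1 shares only 4 with each of the other genes.

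IGHJ2 was the most used J gene over distinct rearrangements and IGHJ1 the least used, in the same order in both libraries. When each distinct combination of V gene, J gene and CDR3 nucleotides was counted once (3175 rearrangements in Cre+ and 2511 in Cre-), IGHJ2 made up 36.4% in Cre+ (34.7 to 38.1) and 35.3% in Cre- (33.5 to 37.2). IGHJ4 followed with 23.9% (22.4 to 25.4) and 24.7% (23.0 to 26.4), and IGHJ3 with 22.2% (20.8 to 23.7) and 21.1% (19.5 to 22.8). IGHJ1 was found in 17.5% (16.2 to 18.8) and 18.9% (17.4 to 20.5). The interval of the Cre+ minus Cre- difference included 0 for each of the 4 genes, and the widest of them, for IGHJ2, ran from -1.45 to 3.61 percentage points. IGHJ3 and IGHJ4 are neighbours in this order whose intervals overlapped in Cre+, and in Cre- they did not. IGHJ3 and IGHJ1, the lowest, overlapped in Cre- and not in Cre+.

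Counted over cells, the libraries stood apart. IGHJ3 was in 951 of 2947 Cre- cells (32.3%) and 714 of 3294 Cre+ cells (21.7%), a difference of -10.6 percentage points (-12.8 to -8.37). The number of cells per distinct rearrangement was 1.79 for IGHJ3 in Cre-, 1.09 for IGHJ4 in Cre+ and at most 1.03 for the other 6 combinations of gene and library.

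Single lineages held most of the repeated cells, and they differed in how much of the J gene they kept. A lineage was a set of cells with the same V gene, J gene and CDR3 length and CDR3 nucleotides joined at 85% identity or more. The main CDR3s of the largest IGHJ1, IGHJ2 and IGHJ4 lineages of Cre+ and of the largest IGHJ3 lineage of Cre- are shown with the kept J bases in capitals.

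IGHV1-18 IGHJ1: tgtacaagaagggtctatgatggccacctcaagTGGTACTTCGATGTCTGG
IGHV1-9 IGHJ2: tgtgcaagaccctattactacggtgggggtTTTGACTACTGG
IGHV4-1 IGHJ3: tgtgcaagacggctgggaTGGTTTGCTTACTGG
IGHV5-17 IGHJ4: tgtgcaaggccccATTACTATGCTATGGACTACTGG

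The IGHJ3 lineage held 417 cells with 1 CDR3, 416 of them IgA, and had lost 2 bases of the J gene. The IGHJ4 lineage held 64 cells, 53 of them IgA, with all 23 J bases kept. The IGHJ2 lineage held 29 cells, 27 of them IgG, and had lost 5 J bases. No lineage of IGHJ1 held more than 4 cells in either library, and the largest in Cre+ held 3.

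The isotype of a cell is the constant gene expressed with its heavy chain, and in IgA the J gene shares differed widely between cells and rearrangements. Over IgA cells IGHJ3 made up 81.9% in Cre- (456 of 557) and IGHJ4 made up 42.0% in Cre+ (87 of 207). With each rearrangement counted once these were 29.1% (21.6 to 37.6) and 23.6% (16.8 to 31.5). Against unswitched rearrangements of the same library, IGHJ3 was higher by 8.65 percentage points in the IgA of Cre- (0.939 to 17.3). The same comparison in Cre+ gave 2.86 (-4.24 to 11.0). IGHJ2 made up 41.4% of distinct IgA rearrangements in Cre+ and 29.9% in Cre-, a difference of 11.6 percentage points (-0.277 to 23.1). IGHJ1 made up 10.0% of distinct IgA rearrangements in Cre+ (14 of 140) and 20.1% in Cre- (27 of 134). In IgG, for each J gene and library the interval of IgG minus unswitched included 0. In the IgG1 of Cre+ IGHJ2 made up 63.6% of 55 cells and 37.9% of 29 distinct rearrangements. IgM and IgD rearrangements also carried the 4 genes at like shares, IGHJ2 for instance at 35.7% of IgM and 36.8% of IgD in Cre+.

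**Figure D1:**
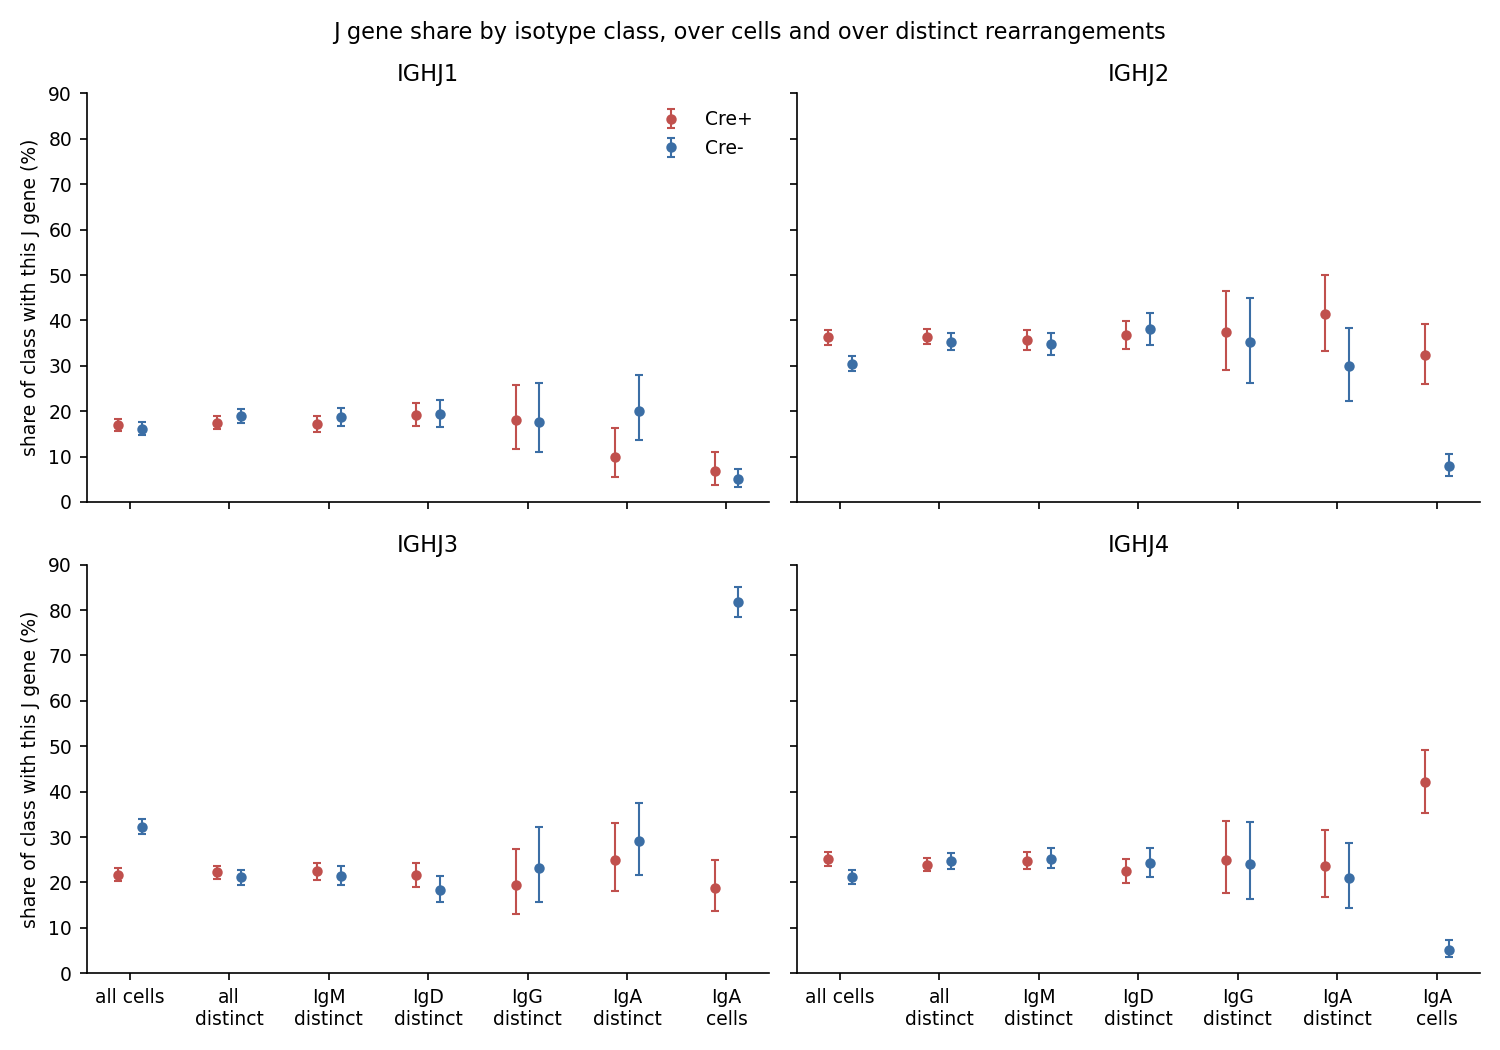
Share of each J gene (vertical axis, percent) among all cells, all distinct rearrangements, the distinct rearrangements of each isotype, and IgA cells (horizontal axis), with points for the Cre+ and Cre- libraries and bars for exact 95% intervals. The intervals of the libraries overlap over distinct rearrangements in every panel, with the points furthest apart in IgA (IGHJ2 at 41.4% and 29.9%). In IgA cells the intervals separate widely for IGHJ2, IGHJ3 and IGHJ4, with IGHJ3 at 81.9% in Cre-, and overlap for IGHJ1.

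Each J gene was trimmed with a pattern of its own that recurred in both libraries. Trimming was read in distinct unswitched rearrangements as the bases missing from the J start, by exact match from the right, so a D or added base that equals the J base counts as kept. IGHJ3 was left whole most often, in 32.1% of Cre+ (28.5 to 35.9) and 33.3% of Cre- rearrangements (29.0 to 37.8). IGHJ2 was whole in 25.02% (22.4 to 27.8) and 28.5% (25.4 to 31.8). IGHJ4 was whole in 15.8% (13.2 to 18.8) and 13.7% (10.9 to 16.8), and IGHJ1 in 16.1% (13.0 to 19.5) and 11.9% (9.02 to 15.4). The intervals of IGHJ2 and IGHJ3 thus lay above those of IGHJ1 and IGHJ4 in each library. With 1 mismatch stepped over, IGHJ1 counted as whole in 22.7% of Cre+ rearrangements (19.1 to 26.5) and IGHJ2 in 25.4% (22.8 to 28.2). Their intervals in Cre+ then overlapped. This rule also counts as whole a trimmed end in which D or added bases left of the mismatch equal the J bases. The part of such ends was not tested.

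The trimmed ends were not spread evenly. By exact match IGHJ1 lacked 5 bases in 25.8% of Cre+ and 25.3% of Cre- rearrangements and 2 in 23.3% and 21.8%. The first of these values includes ends with a mismatch at the fifth base and the 4 bases before it intact, described below, and with that mismatch stepped over 5 bases were missing in 19.4% and 18.7% and 2 bases in 23.4% and 22.0%. IGHJ2 lost 4 bases in 12.7% and 12.8%. IGHJ3 lost 3 bases in 17.4% and 16.2% and 5 bases in 14.0% and 13.2%, but 2 bases in only 3.12% and 2.59%. IGHJ4 had its ends at 4 bases in 16.3% and 14.7% and at 8 bases in 11.7% and 14.0%. On average IGHJ4 lost the most, 4.58 bases in Cre+ (SD 3.55 over 695 rearrangements) and 4.66 in Cre- (SD 3.33 over 564). IGHJ3 lost the least, 3.09 (SD 3.10 over 642) and 3.13 (SD 3.14 over 463). These SDs describe rearrangements within a library and not replicates.

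**Figure D2:**
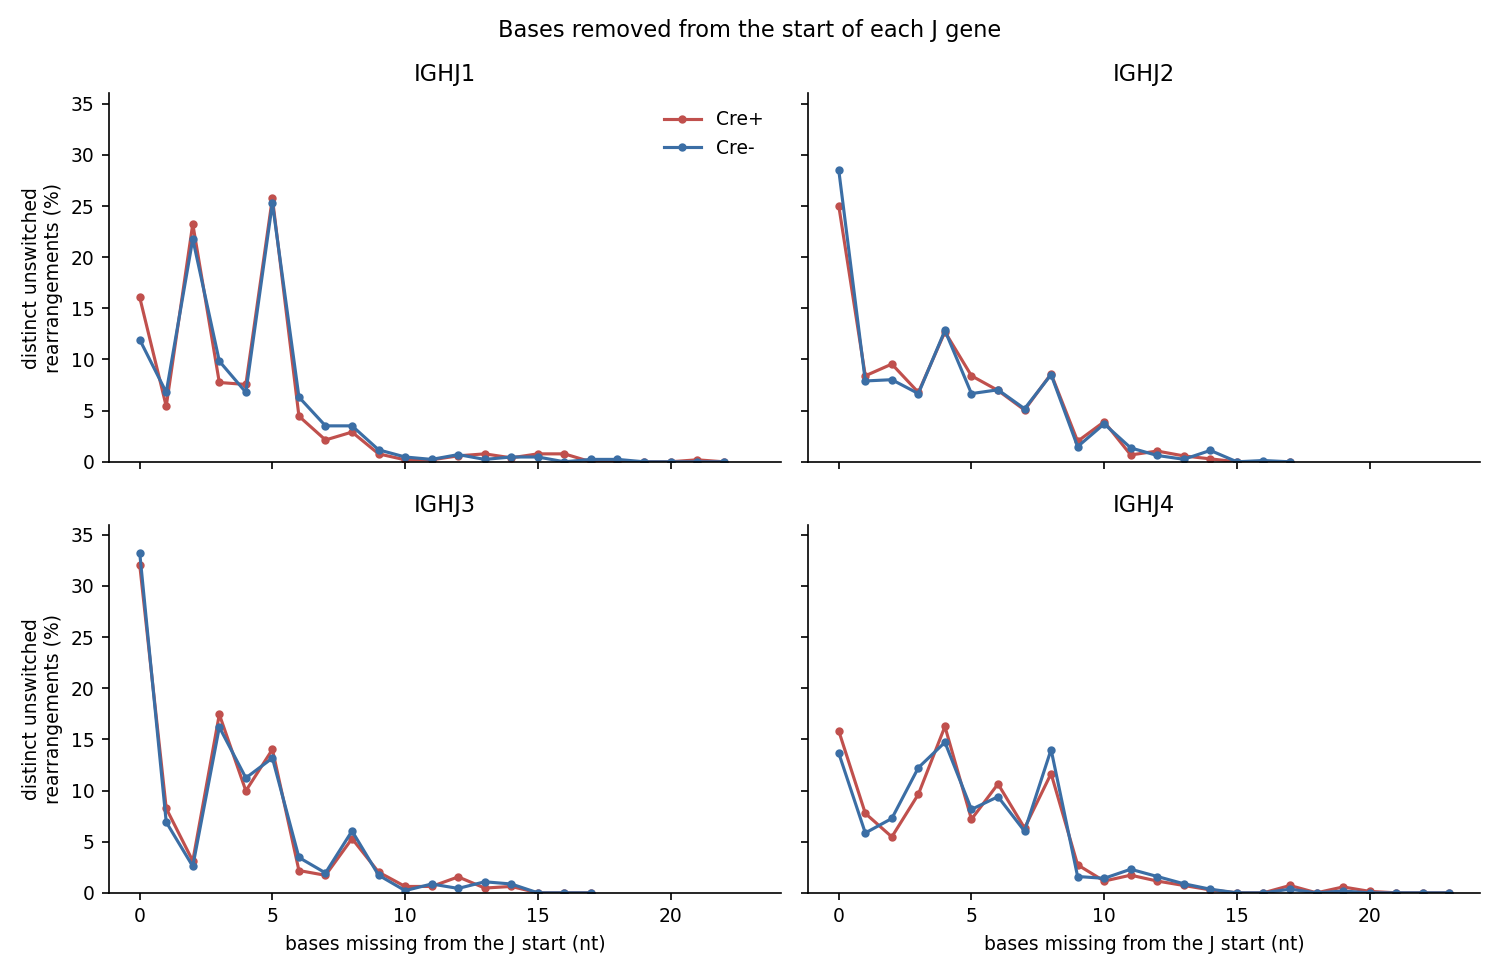
Percent of distinct unswitched rearrangements (vertical axis) by the number of bases missing from the start of the J gene (horizontal axis, nucleotides), 1 panel per J gene and 1 line per library. The lines of the libraries follow each other closely. The main peaks lie at 0, 2 and 5 bases in IGHJ1 and at 0, 2, 4 and 8 in IGHJ2. In IGHJ3 they lie at 0, 3 and 5 bases, and in IGHJ4 at 0, 4 and 8.

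Bases directly in front of an untrimmed J gene often mirrored its start. When the hairpin at a coding end is opened off its tip, the end gains bases that are the reverse complement of its own first bases, known as palindromic or P nucleotides. Over both libraries the base in front of a whole J gene complemented its first base in 63.7% of 493 IGHJ2 ends, 64.7% of 360 IGHJ3 ends, 49.3% of 134 IGHJ1 ends and 47.6% of 187 IGHJ4 ends. Both of the nearest bases were palindromic in 39.4% of IGHJ3 (34.4 to 44.7), 36.6% of IGHJ1 (28.4 to 45.3), 33.1% of IGHJ2 (28.9 to 37.4) and 15.5% of IGHJ4 ends (10.6 to 21.5). The same pair of bases in front of another J gene was less frequent in each case for IGHJ1 (1.42 to 5%) and IGHJ2 (1.94 to 4.81%). The IGHJ3 pair stood in front of 18.7% of whole IGHJ4 ends (13.4 to 25.1), above the 15.5% of IGHJ4's own pair, with overlapping intervals. By D gene, the first palindromic base of IGHJ1 was found in 69.8% of 43 joins with IGHD1-1 (53.9 to 82.8) and 32.5% of 40 other joins (18.6 to 49.1) in Cre+. In Cre- it was found in 51.6% of 31 (33.1 to 69.8) and 35.0% of 20 (15.4 to 59.2), and the intervals overlapped. The same base stood in front of 19.9% of whole IGHJ2 and 36.9% of whole IGHJ4 ends over both libraries. A D or added base that equals a palindromic base is counted as palindromic, and the pair was not split by D gene. The source of these bases was not tested.

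Receptors with IGHJ1 and IGHJ4 had longer CDR3s than those with IGHJ2 and IGHJ3, and most of the difference lay in the J bases themselves. The median over distinct rearrangements was 15 residues for IGHJ1, 13 for IGHJ2, 14 for IGHJ3 and 15 for IGHJ4, with the same medians in both libraries. CDR3s of 18 or more residues made up 18.6% of unswitched IGHJ1 rearrangements in Cre+ (15.3 to 22.2) and 17.1% in Cre- (13.6 to 21.0). For IGHJ4 they made up 14.2% in each library, against 3.06% and 4.57% for IGHJ2 and 3.58% and 4.54% for IGHJ3. CDR3s of 9 or fewer residues were found in 6.78% and 7.16% of IGHJ2 and in 1.74% and 1.41% of IGHJ1 rearrangements.

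The mean unswitched IGHJ4 CDR3 was 5.53 bases longer than the IGHJ2 CDR3 in Cre+, of which 5.17 were kept J bases, and in Cre- 5.32 bases longer, of which 5.02 were J bases. IGHJ1 exceeded IGHJ2 by 6.28 and 5.83 bases, of which 5.15 and 4.94 were J bases. The remainder of the CDR3, made of the V end, the D gene and added bases, averaged from 26.2 bases for IGHJ2 in Cre+ to 27.3 bases for IGHJ1 in both libraries and IGHJ3 in Cre-. With the D gene held fixed, IGHJ1 and IGHJ4 were again longer than IGHJ2 and IGHJ3 in both libraries. With IGHD1-1, a D gene of 23 bases, the mean CDR3 in Cre+ was 16.5 residues for IGHJ1, 14.3 for IGHJ2, 15.1 for IGHJ3 and 16.2 for IGHJ4. With IGHD4-1, a D gene of 11 bases, it was 14.4, 12.4, 12.2 and 14.1, so that IGHJ3 lay slightly below IGHJ2, as it did in Cre- (12.2 against 12.4). IGHJ4 CDR3s held the most tyrosines, on average 2.85 in Cre+ and 2.91 in Cre- over distinct rearrangements, and IGHJ3 CDR3s the fewest, 2.02 and 2.13, though IGHJ1 was nearly as low in Cre- (2.14).

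**Figure D3:**
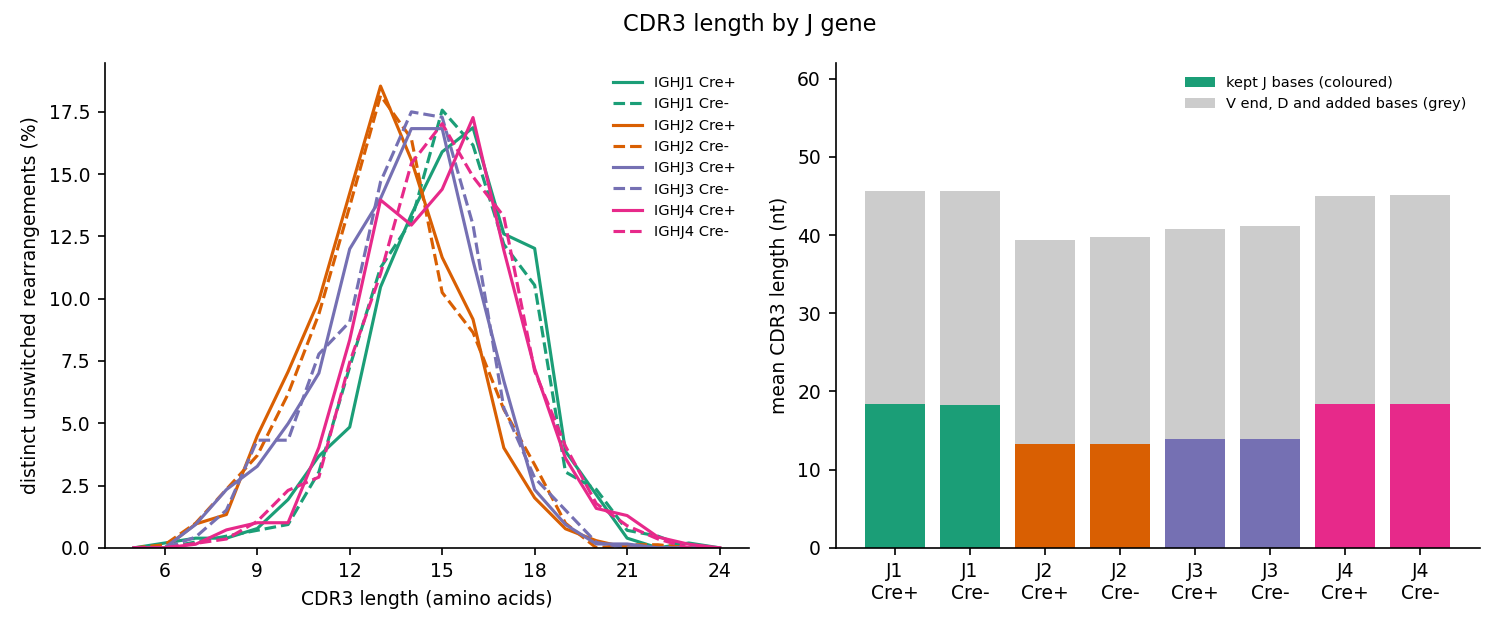
Left, CDR3 length in amino acids (horizontal axis) against percent of distinct unswitched rearrangements (vertical axis), with 1 colour per J gene, a solid line for Cre+ and a dashed line for Cre-. Right, mean CDR3 length in nucleotides split into kept J bases (coloured) and all other bases (grey). IGHJ1 and IGHJ4 curves lie to the right of IGHJ2 and IGHJ3, and the grey segments are nearly equal, from 26.2 to 27.3 bases.

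D genes were not joined evenly to the J genes. For 10 D genes with 20 or more distinct rearrangements in each library, the share of a J gene's rearrangements that used the D gene was set against the share across all J genes. A pair was counted as apart when its interval left out that share on the same side in both libraries. Of 40 pairs, 7 were apart, or 17.5% of all D-J pairs compared. IGHJ1 and IGHJ3 differed most. IGHD1-1 was found in 45.2% of IGHJ1 rearrangements in Cre+ (41.0 to 49.5) and 43.0% in Cre- (38.5 to 47.6), against 33.0% and 32.5% over all J genes. With IGHJ3 it was at 25.4% (22.2 to 28.8) and 24.0% (20.4 to 27.8).

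IGHD2-4 and IGHD3-2 are named here after their values were seen. IGHD2-4 was in 17.9% and 18.3% of IGHJ3 rearrangements, against 11.2% and 12.7% across all J genes, and in 7.93% and 7.38% of IGHJ1 rearrangements. IGHD3-2 was in 1.08% and 1.27% of IGHJ1 rearrangements, 6 in each library, against 5.13% and 4.66% across all J genes. IGHD4-1 (113430528 to 113430538), which lies 694 bases from IGHJ1 and 1960 from IGHJ4, was in 14.4% and 12.9% of IGHJ2 rearrangements, against 11.9% and 9.88% across all J genes. With IGHJ4, the farthest J gene, it was at 8.43% and 6.45%. With IGHJ1, the nearest, it was at 11.0% and 9.70%, and both intervals held the share across all J genes. Counted over cells, IGHD2-4 with IGHJ3 and IGHD4-1 with IGHJ2 were no longer apart in both libraries. No D gene was called in 6.31% and 7.38% of IGHJ1 and in 10.3% and 10.8% of IGHJ4 rearrangements.

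Trimming was also read by D gene. IGHJ1 was left whole in 5.45% of 55 joins with IGHD4-1 in Cre+ (1.14 to 15.1) and 5.13% of 39 in Cre- (0.627 to 17.3), against 18.1% (13.4 to 23.6) and 16.1% (11.2 to 22.1) of joins with IGHD1-1, with overlapping intervals. IGHJ2 was whole in 31.8% (24.6 to 39.8) and 28.7% (20.1 to 38.6) of joins with IGHD4-1, against 20.8% (16.6 to 25.5) and 27.9% (22.6 to 33.7) with IGHD1-1. In joins with IGHD4-1, IGHJ4 lost exactly 8 bases in 20% of 60 rearrangements in Cre+ and 37.8% of 37 in Cre-. Among all unswitched IGHJ4 rearrangements these shares were 11.7% and 14.0%. Intervals were not computed for the loss of exactly 8 bases. The D gene is called by alignment, and a start of the J gene that resembles the end of a D gene can be read as either; the part of this in the values was not tested.

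**Figure D4:**
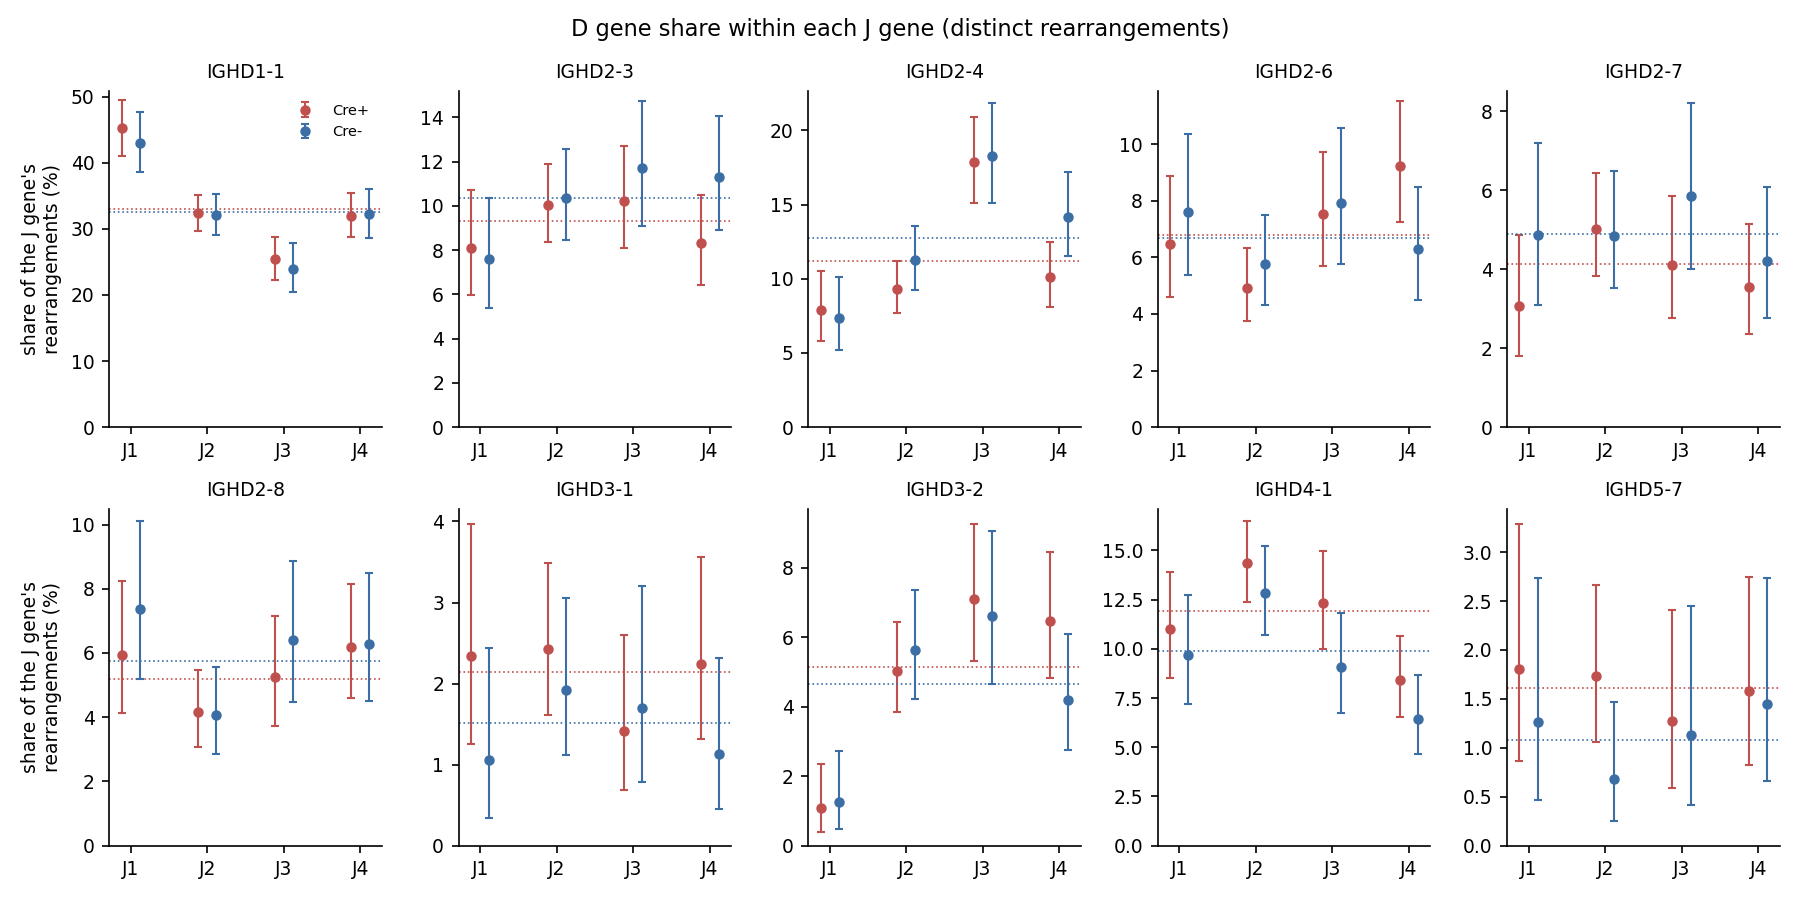
Share of each J gene's distinct rearrangements (vertical axis, percent) that used each of 10 D genes (panels, each on its own scale from 0), with points for the libraries, bars for exact 95% intervals and dotted lines for the share over all J genes. IGHD1-1 is above its lines with IGHJ1 (45.2% and 43.0%) and below them with IGHJ3 (25.4% and 24.0%).

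Few V genes stood apart in the J genes they used. The same rule was applied to 46 V genes with 20 or more distinct rearrangements in each library, which cover 84.9% of the rearrangements. A V gene has far fewer rearrangements than a J gene, so the V-J intervals are wider than the D-J ones and the percentages of pairs apart cannot be compared. Of 184 V-J pairs 4 were apart, or 2.17%, 1 of 46 V genes for each J gene (also 2.17%). IGHV5-16 used IGHJ1 in 36.4% of 33 rearrangements in Cre+ and 41.4% of 29 in Cre-. IGHV14-4 used IGHJ3 in 41.9% of 31 and 56.5% of 23. IGHV2-2 used IGHJ4 in 39.1% of 46 and 42.9% of 35. IGHV1-18 used IGHJ2 in only 19.7% of 76 and 21.8% of 55. Of these 4 pairs, 2 were apart in unswitched rearrangements alone (IGHV1-18 and IGHV2-2), where 42 V genes could be compared. A V gene below the minimum of 20 there could not be counted. Over cells 3 of 184 pairs were apart, those of IGHV14-4 and IGHV5-16 and IGHV4-1 with IGHJ2. None of the 4 pairs was apart in both of these settings.

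None of the 40 pairs of the 10 V genes with the most rearrangements was apart in both libraries. IGHV1-26, the most frequent V gene, used IGHJ2 in 39.6% of 217 and 40.4% of 151 rearrangements. Across the 46 V genes the median share was 36.1% and 36.8% for IGHJ2 and 17.0% and 19.4% for IGHJ1, close to the shares over all rearrangements, and single V genes ranged for IGHJ2 from 15.4% to 55.6% in Cre+ and from 9.68% to 55% in Cre-. By family, only pairs whose intervals left out the share over all rearrangements on the same side in both libraries are named. They were picked from all pairs of family and J gene. IGHV2 rearrangements used IGHJ4 in 37.5% of 128 in Cre+ (29.1 to 46.5) and 41.4% of 116 in Cre- (32.3 to 50.9). They used IGHJ2 in 21.9% (15.1 to 30.0) and 15.5% (9.46 to 23.4). IGHV7 used IGHJ1 in 38.5% of 39 (23.4 to 55.4) and 35.0% of 40 (20.6 to 51.7). The largest family, IGHV1, used IGHJ2 in 38.8% of 1992 (36.6 to 40.9) and 38.7% of 1565 (36.2 to 41.1). Both intervals lay above the shares over all rearrangements, 36.4% and 35.3%.

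Switched receptors carried mismatches inside the J end far more often than unswitched ones, for all 4 genes and in both libraries. B cells mutate their variable region during the germinal centre reaction, and a mutated J base shows as a mismatch between matching bases, whereas trimming removes the J end from the left. A mismatch was called internal when 4 matching bases stood directly to its left. In distinct IGHJ3 rearrangements an internal mismatch was found in 1.40% of 642 unswitched and 35.0% of 60 switched rearrangements of Cre+, and in 1.08% of 463 and 39.1% of 64 of Cre-. In IGHJ4 the shares were 3.17% and 31.2% in Cre+ and 2.30% and 41.5% in Cre-. In IGHJ2 they were 4.87% and 21.9% in Cre+ and 4.44% and 14.3% in Cre-, and in IGHJ1 8.91% and 29.7%, and 10.1% and 34.8%. The interval of switched minus unswitched left out 0 in all 8 comparisons, and the narrowest margin was that of IGHJ2 in Cre- (9.84 percentage points, 2.71 to 19.8).

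The mismatches of unswitched IGHJ1 were concentrated at 1 base. Of 89 unswitched IGHJ1 rearrangements with an internal mismatch over both libraries, 78 had it at the fifth base of the J gene (position 5 from the J start). This mismatch was found in 11.8% of Cre+ joins with IGHD1-1 (7.96 to 16.6) and 3.96% of other joins (1.99 to 6.97), and in Cre- in 12.5% (8.18 to 18.03) and 6.38% (3.62 to 10.3). In IGHJ2, 51 of 87 were at position 6 from the J start. With mismatches counted only in the bases printed in capitals, a rule added after these values were seen, unswitched shares lay between 0.382% and 1.36% for each gene and library. The switched shares were then 24.3% and 23.9% for IGHJ1, 19.0% and 9.09% for IGHJ2, 33.3% and 37.5% for IGHJ3 and 31.2% and 37.7% for IGHJ4 in Cre+ and Cre-. In Cre- the IGHJ2 interval (3.73 to 17.8) lay below that of IGHJ3 (25.7 to 50.5), and in Cre+ the intervals overlapped. The number of bases in capitals is 15 for IGHJ1 and IGHJ4 and 9 for IGHJ2 and IGHJ3, so only genes of equal number can be compared directly.

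In switched IGHJ3 a single base stood out. The ninth base of the J gene, the first capital of its printed sequence, was mismatched in 17 of 124 switched rearrangements (13.7%), 7 in Cre+ and 10 in Cre-, from 15 lineages. It is the first base of the second codon before the tryptophan. The next most frequent position of IGHJ3 was mismatched in 9 of 124 (7.26%), from 8 lineages. Intervals were not computed for single positions. The most frequent position in switched IGHJ1 was mismatched in 7 of 83 rearrangements (8.43%), from 6 lineages. That of IGHJ2 was mismatched in 12 of 182 rearrangements (6.59%), from 12 lineages, and in IGHJ4 the most frequent was mismatched in 9 of 117 (7.69%), from 8 lineages.

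**Figure D5:**
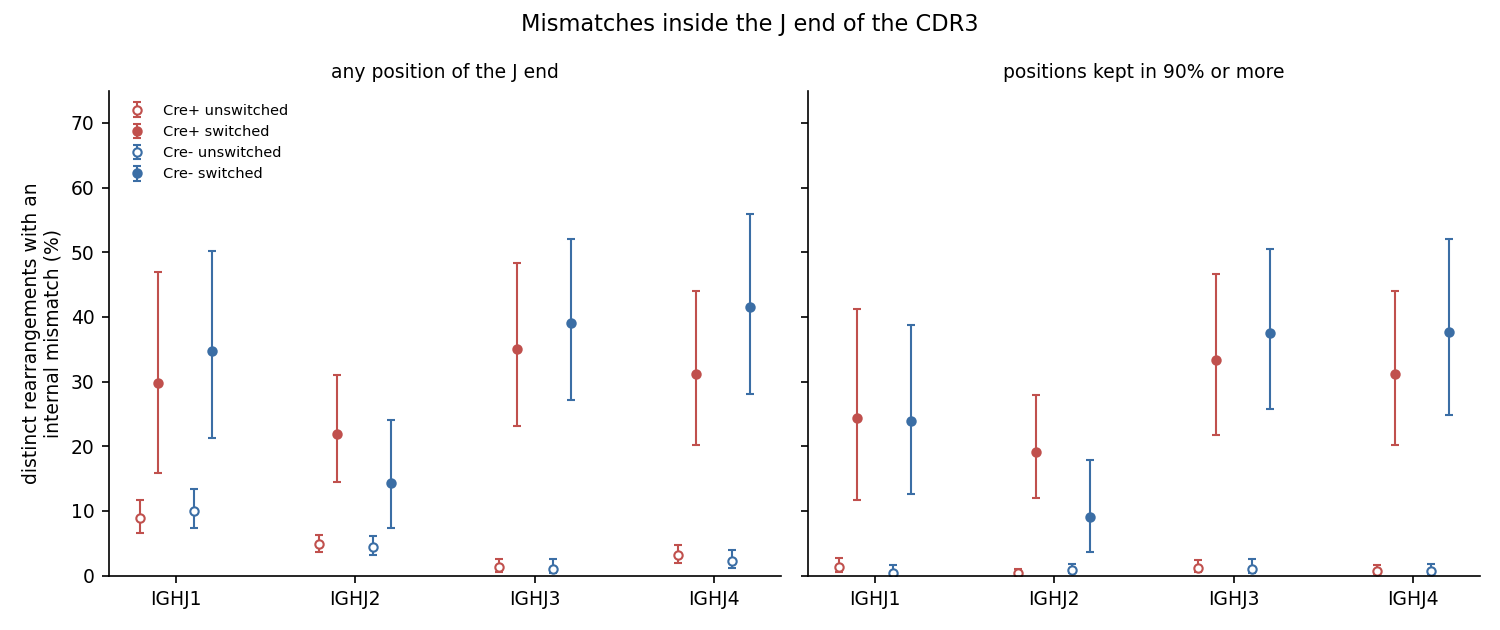
Percent of distinct rearrangements with an internal mismatch in the J end (vertical axis) for each J gene, in unswitched (open) and switched (filled) rearrangements of each library, with exact 95% intervals, over all J positions (left) and over the positions kept in 90% or more (right). The unswitched IGHJ1 points fall from 8.91% and 10.1% on the left to 1.36% and 0.468% on the right, while the switched points stay above 9%.

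Depth differed little between the J genes. The median heavy chain had 8 to 9 UMIs for each J gene in both libraries, except IGHJ3 in Cre-, with 13, and 9 without the largest lineage. CDR3 nucleotide sequences found in both libraries were 2 for IGHJ1, 3 for IGHJ2 and 0 for IGHJ3 and IGHJ4. No rearrangement of V gene, J gene and CDR3 was found in both libraries, and 8 of the cells' barcodes were.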

How the data were processed

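Receptor transcripts were amplified with a droplet kit of 10x Genomics for V(D)J sequencing from the 5' end. The submitters' processing notes name Cell Ranger (version not given in the sources used here) and GRCm38. The contig tables give, per the file headers, V, D, J and constant gene, CDR3 and the count of reads and UMIs of each contig, as deposited by the authors, with no normalisation; all contigs carried the called-cell flag. The libraries held 355258 (Cre+) and 355985 (Cre-) UMIs from 22003594 and 19982305 reads. Barcodes with more than 1 heavy chain were left out, and no doublet caller was run. PCR copies were collapsed by UMI only, so intervals cover counting error.

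The J sequence within the CDR3 was rebuilt from the CDR3 end leftward, as the most common base among unswitched rearrangements matching so far, up to the RefSeq gene length less 31 bases. This step and the mismatch search were tested on simulated J ends joined to random bases, with substitutions placed only inside the kept end. D gene ends that resemble a J start were not simulated, so false mismatches from that source were not covered. Differences of shares have intervals combined from both exact ones. Python 3.11.15, pandas 2.3.3 and scipy 1.17.1 were used.

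Genes named were all IGHJ and constant genes, IGHD genes with 20 or more distinct rearrangements in both libraries (by count, IGHD1-1 and IGHD4-1 by value), the 10 most frequent IGHV genes and those apart in both libraries. Alternatives were other rules for cells, UMIs, isotypes, trimming and mismatches. The genes and lists were chosen with earlier results of these data known.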

Additional observations from a re-analysis of the deposited data

Results flagged for a closer look

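The share of IGHJ1 in distinct IgA rearrangements differed between the libraries. It was 10.0% in Cre+ (14 of 140, 5.58 to 16.2) and 20.1% in Cre- (27 of 134, 13.7 to 27.9), a difference of -10.1 percentage points (-19.1 to -1.21). Against unswitched rearrangements of the same library the IgA share of IGHJ1 was lower by 7.79 percentage points in Cre+ (-12.4 to -1.43), and in Cre- the difference was 1.29 (-5.36 to 9.25). Of the 27 IGHJ1 rearrangements in Cre-, 4 belonged to 1 IGHV1-19 lineage and each was counted. The shares with 1 rearrangement per lineage were not computed. With 1 library per genotype the difference between the libraries was not tested, and it is 1 of 32 such differences computed over 8 sets of cells or rearrangements.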

How the results depend on the processing

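No paired analysis was possible because each genotype had 1 library. Of 204 values under alternatives for 60 results, 161 stayed within the interval of the main value or, for counts, within 1.5 times it. Counting each rearrangement once, leaving out the largest lineage, or keeping unswitched cells gave, in Cre-, 18.9%, 18.8% and 18.9% for IGHJ1, 35.3%, 35.5% and 35.8% for IGHJ2, 21.1%, 21.1% and 20.4% for IGHJ3 and 24.7%, 24.6% and 24.9% for IGHJ4, and in Cre+ IGHJ4 was 23.6% without the largest lineage. The Cre+ minus Cre- difference was then -1.40, -1.54 and -1.09 percentage points for IGHJ1, 1.08, 1.57 and 0.264 for IGHJ2, 1.10, 0.999 and 1.65 for IGHJ3 and -0.786, -1.03 and -0.820 for IGHJ4; IGHJ1, IGHJ3 and IGHJ4 changed sign, IGHJ1 from a main difference whose interval included 0.

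V-J pairs apart numbered 1 of 80 (1.25%) with V genes of 40 or more rearrangements, against 4 of 184 (2.17%). IGHV14-4, IGHV2-2 and IGHV5-16 had fewer than 40 in Cre-, so of the 4 pairs only that of IGHV1-18 could be counted. In unswitched rearrangements 2 of 168 (1.19%) were apart, and over cells 3 of 184 (1.63%). D-J pairs apart numbered 7 in the other settings but 5 over cells, where IGHD2-4 with IGHJ3 and IGHD4-1 with IGHJ2 were lost; IGHJ3 in Cre- then had IGHD1-1 in 13.4% and IGHD2-4 in 10.5%. Mean CDR3 lengths were 13.1, 13.6 and 14.98 residues for IGHJ2, IGHJ3 and IGHJ4 in Cre+ and 15.2, 13.2, 13.7 and 14.99 for IGHJ1 to IGHJ4 in Cre-, and over cells the IGHJ3 median in Cre- was 11. With 1 mismatch stepped over, IGHJ1 ends counted as whole rose to 22.7% in Cre+ and 18.7% in Cre-. Switched minus unswitched mismatches were 13.4 percentage points for IGHJ4 in Cre+ over cells, and for IGHJ3 in Cre- 4.50 over cells and 23.9 with 6 matching bases on the left. Of the 951 IGHJ3 cells of Cre-, 417 were of the 1 lineage with a single CDR3 of 33 bases, most often called with IGHD4-1. The causes of these shifts were not tested. One rearrangement per lineage and the bases in capitals, both chosen after seeing the data, kept all 8 mismatch differences within their intervals. Depth limits the switched shares, which rest on 37 to 105 rearrangements per gene and library.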

Other observations

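Heavy chain contigs flagged as nonproductive, which were used in no comparison above, carried the J genes in other proportions. They were taken from all barcodes, while the productive rearrangements came only from barcodes with 1 heavy chain. Whether each contig was out of frame or interrupted was not checked. Each of these contigs had a CDR3 of its own, so they were set against distinct rearrangements. IGHJ3 made up 31.2% of 231 such contigs in Cre+ and 33.3% of 159 in Cre-, higher than among productive distinct rearrangements by 8.96 (2.87 to 15.5) and 12.2 percentage points (4.77 to 20.3). IGHJ4 made up 16.5% and 17.0%, differences of -7.46 (-12.2 to -1.84) and -7.71 (-13.5 to -0.750). IGHJ1 made up 10.4% and 13.2%, with differences of -7.09 (-10.96 to -2.24) and -5.67 (-10.8 to 0.781), the second of which includes 0. For IGHJ2 both intervals included 0. Over productive cells of Cre-, where the largest lineage is counted in full, IGHJ3 made up 32.3%.

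Internal J mismatches over the 4 genes together were found in 37.1% of 140 distinct IgA rearrangements (29.1 to 45.7) and 17.97% of 128 IgG rearrangements (11.7 to 25.7) in Cre+, and in 32.1% of 134 (24.3 to 40.7) and 28.7% of 108 (20.4 to 38.2) in Cre-. In Cre+ IgA the shares were 7 of 14 for IGHJ1, 29.3% of 58 for IGHJ2, 42.9% of 35 for IGHJ3 and 39.4% of 33 for IGHJ4, and in Cre+ IgG 17.4% of 23, 12.5% of 48, 24.0% of 25 and 21.9% of 32. In Cre- IgA they were 44.4% of 27, 12.5% of 40, 33.3% of 39 and 46.4% of 28, and in Cre- IgG 21.1% of 19, 15.8% of 38, 48.0% of 25 and 34.6% of 26. Lambda light chains accompanied between 4.13% and 6.89% of the unswitched heavy chains of each J gene in the 2 libraries.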
